A study of Mus musculus with 7 samples.

Results

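The metallothioneins and zinc transporters of the terminal ileum are described here as 10 genes: Mt1, Mt2, Slc39a4, Slc39a5, Slc39a8, Slc39a14, Slc30a1, Slc30a4, Slc30a10 and Mtf1. They were read from the probe sets of the deposited table whose platform annotation names one of these genes and no other, which gave 21 of 45101 probe sets and 10 of 18193 genes. A probe set is the group of short array probes that reads one transcript. In the penicillin group 4 male C57BL6J mice aged 8 weeks had received penicillin at 6.7 mg/L, a low dose, from birth. In the control group 3 male C57BL6J mice of the same age had received no antibiotic. All 7 mice were weaned onto chow at 4 weeks and then, from 6 weeks, were fed a high-fat diet (45% of energy). The labels call the arrays biological replicates, taken here as 1 mouse each, and name neither litter nor cage. A litter or cage difference and penicillin cannot be told apart.

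Zinc enters an enterocyte through importers of the ZIP family, whose genes are named Slc39a, and leaves the cytosol, across the plasma membrane or into vesicles, through exporters of the ZnT family, whose genes are named Slc30a. Inside the cell metallothioneins, small proteins rich in cysteine, bind and buffer zinc and copper. Mtf1 encodes MTF-1, a zinc finger transcription factor that senses free zinc and switches on Mt1, Mt2 and Slc30a1 through short DNA motifs called metal response elements. Some members of both transporter families carry manganese as well as zinc.

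The 4 promoters below are shown because MTF-1 is known to act on Mt1, Mt2 and Slc30a1, and because Slc30a4 had the smallest p of the 10 members. Each run is the RefSeq window of 300 bases in build GRCm38.p6, with 250 bases before the annotated start and 50 after it, written 5′ to 3′ along the gene. Capitals mark the core of the metal response element, TGCACNC or TGCGCNC, on either strand. The windows of Mt1 at chr8:94178839-94179138, Mt2 at chr8:94172368-94172667 and Slc30a1 at chr1:191906531-191906830 lie on the plus strand, and that of Slc30a4 at chr2:122702614-122702913 lies on the minus strand.
Mt1: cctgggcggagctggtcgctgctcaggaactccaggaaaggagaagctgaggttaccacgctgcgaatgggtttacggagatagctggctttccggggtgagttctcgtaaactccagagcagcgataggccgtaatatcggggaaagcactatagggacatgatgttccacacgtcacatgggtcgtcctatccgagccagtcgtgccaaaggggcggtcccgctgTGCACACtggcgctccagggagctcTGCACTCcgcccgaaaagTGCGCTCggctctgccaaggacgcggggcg
Mt2: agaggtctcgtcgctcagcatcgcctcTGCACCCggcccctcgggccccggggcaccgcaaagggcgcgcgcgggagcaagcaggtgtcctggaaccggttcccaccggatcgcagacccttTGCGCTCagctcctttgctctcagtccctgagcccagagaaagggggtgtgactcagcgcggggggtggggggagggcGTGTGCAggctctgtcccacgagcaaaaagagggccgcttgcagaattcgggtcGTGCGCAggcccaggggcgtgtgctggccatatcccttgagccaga
Slc30a1: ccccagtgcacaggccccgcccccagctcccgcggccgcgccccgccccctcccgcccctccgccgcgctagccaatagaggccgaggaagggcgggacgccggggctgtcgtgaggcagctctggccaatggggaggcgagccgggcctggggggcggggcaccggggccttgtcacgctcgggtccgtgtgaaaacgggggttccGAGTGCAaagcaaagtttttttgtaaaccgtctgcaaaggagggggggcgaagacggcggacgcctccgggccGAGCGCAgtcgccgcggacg
Slc30a4: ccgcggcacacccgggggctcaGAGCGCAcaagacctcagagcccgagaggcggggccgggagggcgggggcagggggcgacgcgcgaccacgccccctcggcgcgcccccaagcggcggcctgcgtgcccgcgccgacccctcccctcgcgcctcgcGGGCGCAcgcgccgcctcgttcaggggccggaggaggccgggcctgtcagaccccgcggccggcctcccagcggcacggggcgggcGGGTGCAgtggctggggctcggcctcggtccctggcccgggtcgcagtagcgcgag
The window of Mt2 held 4 matches, those of Mt1 and Slc30a4 held 3 each, and that of Slc30a1 held 2. Slc30a10 also had 3 matches, a pair of which overlap on opposite strands. Among the 32851 windows listed by RefSeq, 25.7% held at least 1 match, 7.11% at least 2, 1.97% at least 3 and 0.517% at least 4. The table had a window for 8 of the 10 members, and Slc39a4 and Slc39a14 were not among them. Slc39a5 and Slc39a8 had 2 windows each, with 1 match in one of them, and Mtf1 had no match. A match is only a run of letters and says nothing of binding in these mice. Mt2 and Mt1 are neighbours on chromosome 8, next to Mt3.

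No member changed past the test between penicillin and control mice. Of the 10 members 0 were called in limma at a Benjamini-Hochberg adjusted p under 0.05, where 0.0953% of the 13644 genes tested were called. By direction, 0 members were called higher, against 0.00733% of genes tested, and 0 lower, against 0.088%. Each difference below is the penicillin mean minus the control mean in log2 units, followed by its standard error (SE). At an unadjusted p under 0.05 there were 2 members, Slc30a4 and Slc39a8, against 10.7% of all genes tested. The groups did not overlap in the same 2 members, against 10.3% of all genes tested. Shares of this size correspond to about 1 gene in 10, so the members' 2 is 1 gene above the background. Values were higher in penicillin mice for 7 members and lower for 3, where 45.3% of all genes tested were higher. The median difference of the members was 0.16, against -0.01 over all genes tested. Without control replicate 3 Slc39a4, Slc39a5 and Mtf1 turned to -0.05, -0.01 and -0.02, and Slc39a14 differed by 0.00429. Over the 10 members the adjusted p ran from 0.190 to 0.691. The plot of the members by array shows all of these values.

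**Figure D1:**
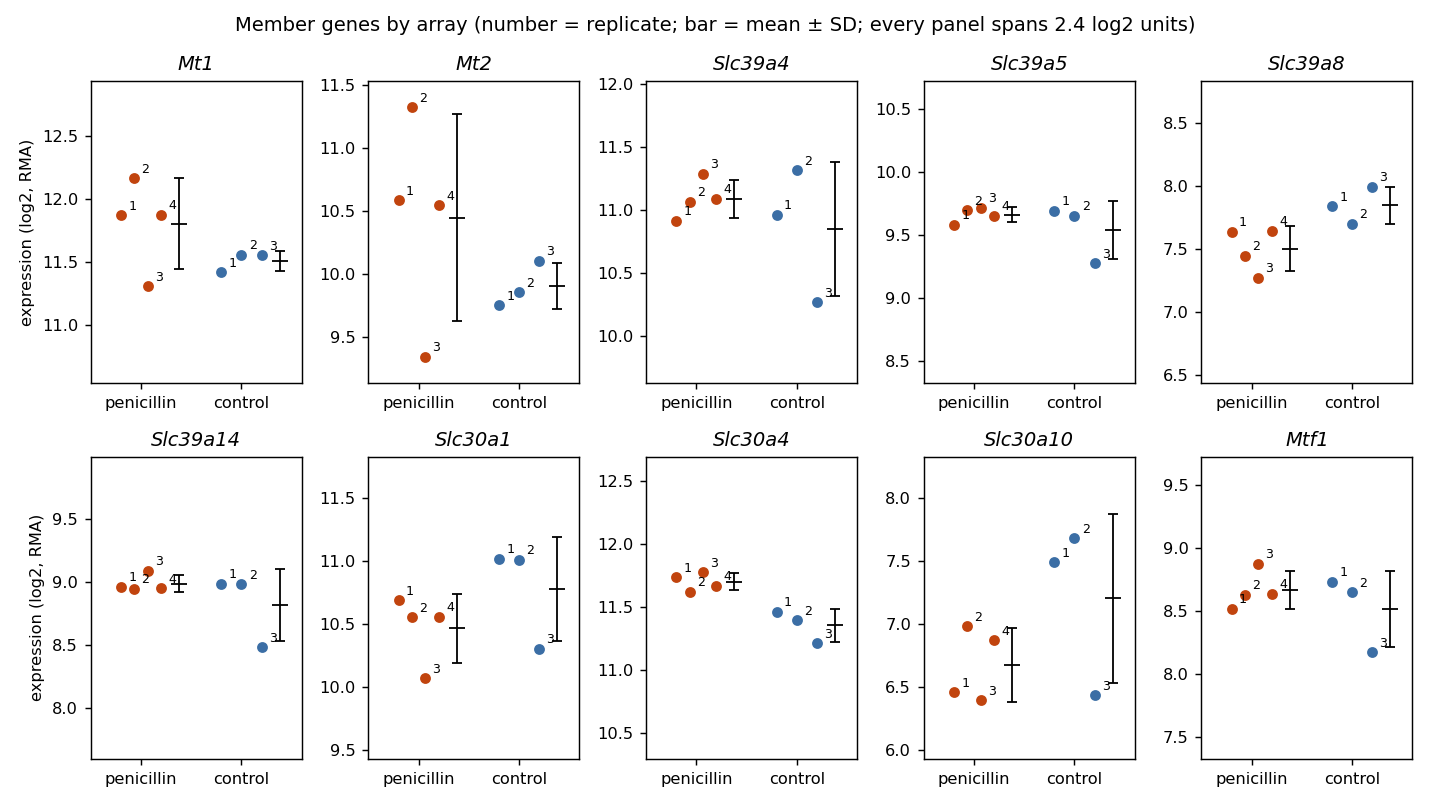
Expression of the 10 member genes (log2, RMA; y axis) in each array, with penicillin mice on the left and control mice on the right of each panel; numbers are replicates and bars are mean ± SD. Slc30a4 in penicillin mice lies above, and Slc39a8 below, every control mouse, and in the other 8 panels the groups overlap.

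Control replicate 3 stood away from its group. Along the leading principal component (48.0% of the variance over the genes tested) it lay at -30.0 and penicillin replicate 3 at 17.6, with the other arrays between -2.90 and 6.65. All 7 of the 7 measured brush border genes (enzymes and transporters of the absorptive surface) were lowest in control replicate 3, where their mean level was log2 10.3, against 11.4 to 11.8 in the other 6 arrays. The colon genes Car1, a carbonic anhydrase, and Aqp8, a water channel, were highest there, at log2 14.1 and 8.27, against 5.11 to 10.8 and 3.86 to 4.29 in the others. Of the other 6 colon genes Slc26a3, Car4 and Aqp4 were neither highest nor lowest there. Hoxd10 was highest and Hoxb13 and Hoxd13 lowest there, all 3 under the filter on dim genes. Values were between log2 2.50 and 14.7 and array medians between 5.43 and 5.45. Of the 3 ileal genes, Fabp6, a bile acid carrier of ileal enterocytes, was at log2 14.5 ± 0.115 in penicillin mice and 14.4 ± 0.109 in control mice (SD, n = 4 and 3). Slc10a2, the ileal bile acid importer, differed by 0.82 (adjusted p = 0.308 in limma), with all penicillin mice above all control mice and control replicate 3 lowest, and by 0.51 without that array. Fgf15, a hormone of the ileum, differed by -1.14 (adjusted p = 0.508 in limma), and by -1.71 without it. The labels' growth text speaks of livers. Of 5 hepatocyte genes Ahsg, Fgb and Hpx had means under the level used to filter dim genes. Ttr, a thyroid hormone carrier, was at log2 8.84 to 9.50 in penicillin mice, all above the 8.45 to 8.59 of control mice, with a difference of 0.59 (adjusted p = 0.259 in limma). Alb, the gene of albumin, was at log2 5.45 to 7.95 in penicillin mice and 5.15 to 7.40 in control mice, with a difference of 0.70 (adjusted p = 0.697 in limma). The mean of all 5 was between log2 5.35 and 6.33 in penicillin mice and between 5.23 and 5.75 in control mice.

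Every member, read by its brightest probe set, had its lowest value in penicillin replicate 3 or in control replicate 3. Some other probe sets differed. The second of Mt1 was lowest in penicillin replicate 4, the second of Slc30a10 in control replicate 3 and the dimmest of Mtf1 in penicillin replicate 1. By the brightest probe sets the members split as follows. Mt1, Mt2, Slc39a8, Slc30a1 and Slc30a10 were lowest in penicillin replicate 3. Slc39a4, Slc39a5, Slc39a14, Slc30a4 and Mtf1 were lowest in control replicate 3. Over all genes tested 20.7% had their lowest value in penicillin replicate 3, 21.6% in control replicate 3 and 42.3% in either. The member genes are few and their values are not independent of each other, so these counts describe the arrays and were not tested. The members are therefore given below both with and without control replicate 3, and the grid of deviations shows the same split.

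**Figure D2:**
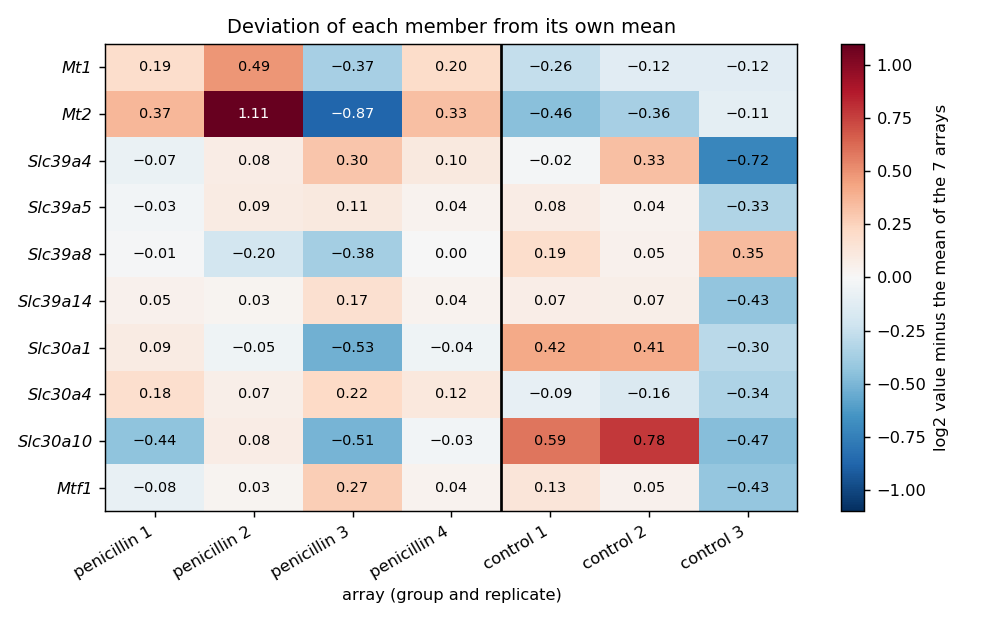
Each member's log2 value minus its own mean over the 7 arrays (colour and printed number), with the 4 penicillin arrays left of the line and the 3 control arrays right of it. The lowest value of every row is in the column of penicillin replicate 3 or of control replicate 3.

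The first question is whether the metal buffer and its regulator differ in mice given penicillin. Mt1, a metallothionein, had log2 values of 11.87, 12.16, 11.31 and 11.87 in penicillin mice, against 11.41, 11.56 and 11.55 in control mice. In 3 of the 4 penicillin mice Mt1 lay above every control mouse, and in penicillin replicate 3 it lay below every control mouse. The difference was 0.30 ± 0.18 (SE), a 1.23-fold higher level, with an adjusted p of 0.559 in limma. Mt2, the neighbouring metallothionein, had log2 values of 10.58, 11.32, 9.34 and 10.54 in penicillin mice, against 9.75, 9.85 and 10.11 in control mice. It showed the same pattern, with penicillin replicate 2 highest and penicillin replicate 3 lowest of all 7. Its difference was 0.54 ± 0.40 (SE, 1.46-fold; adjusted p = 0.605 in limma, 95% interval -0.39 to 1.48).

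The spread of the metallothioneins among penicillin mice was wide. Mt2 averaged 10.45 ± 0.820 in penicillin mice and 9.91 ± 0.182 in control mice (SD, n = 4 and 3), and its penicillin values spanned 1.98 log2 units, against 0.35 in control mice. Mt1 spanned 0.86 log2 units in penicillin mice and 0.14 in control mice. The difference of Mt2 was 0.91 without penicillin replicate 3 (adjusted p = 0.417 in limma) and 0.25 without penicillin replicate 2 (adjusted p = 0.821 in limma). That of Mt1 was 0.46 and 0.18 in the same fits. Without control replicate 3 the differences were 0.32 for Mt1 and 0.64 for Mt2. None of these fits called either gene.

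Mt1, as read by its brighter probe set, and Mt2 moved together across the arrays. Over the 7 arrays their values correlated with Pearson's r = 0.987 (exact permutation p = 0.00159, adjusted p = 0.00476 over 3 relations) and Spearman's rho = 0.929 (exact permutation p = 0.00675, adjusted p = 0.0202). The pair was picked once both genes had been looked at, and these p do not allow for that choice. The permutations also mixed penicillin and control arrays. These p therefore do not separate variation among mice of a group from a difference between the groups. Without penicillin replicates 2 and 4, the arrays farthest from the median of Mt1, r was 0.968 over 5 arrays. The probe set of Mt1 used here carries the suffix s, which the manufacturer gives to sets whose probes can match more than one transcript, and both genes are close in sequence. Cross-hybridisation between them was not tested. The other probe set of Mt1, with log2 values of 5.68, 6.14, 5.53 and 5.16 in penicillin mice, against 5.45, 5.16 and 5.28 in control mice, was also highest in penicillin replicate 2. It followed Mt2 less closely, at r = 0.591 (exact permutation p = 0.192, adjusted p = 0.230) and rho = 0.321 (exact permutation p = 0.498, adjusted p = 0.746). With the first Mt1 probe set it had r = 0.557 (exact permutation p = 0.230, adjusted p = 0.230) and rho = 0.107 (exact permutation p = 0.840, adjusted p = 0.840). Without the same arrays these r were 0.252 and 0.293.

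**Figure D3:**
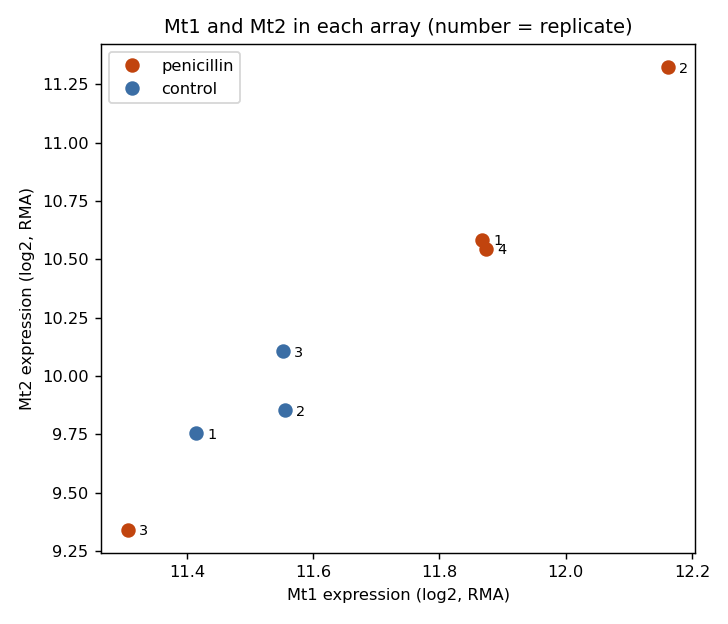
Mt2 (y axis) against Mt1 (x axis), both as log2 RMA expression, in each of the 4 penicillin and 3 control arrays; numbers are replicates. The penicillin arrays take both ends of the line, replicate 2 at the top and replicate 3 at the bottom, and the control arrays lie close together in its lower part.

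Of the 13643 other genes tested, those most like Mt1 over the 7 arrays were Mt2, then Dusp13 at r = 0.943, Srrm4 at r = 0.937, 1700009N14Rik at r = 0.933 and Gm19696 at r = 0.929. These are descriptions over 7 arrays that share their group and normalisation. Dusp13, a dual-specificity phosphatase, Srrm4, a neural splicing factor, and 1700009N14Rik were dim, with means of log2 5.19, 5.32 and 4.59. None of them passed the test.

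Mtf1 had log2 values of 8.52, 8.63, 8.88 and 8.64 in penicillin mice, against 8.74, 8.65 and 8.18 in control mice. The penicillin values lay around those of control replicates 1 and 2, and control replicate 3 was low. The difference was 0.15 ± 0.14 (SE, adjusted p = 0.691 in limma), and without control replicate 3 it was -0.02. Mtf1 had 5 probe sets, and their differences ran on both sides of 0. The second brightest, with a difference of 0.16, went with the first, and the third had a difference of only -0.01. The dimmest, at a mean near log2 3.6, had a difference of -0.07. In the 95% interval for the brightest probe set of Mtf1, from -0.19 to 0.48, lie differences in either direction.

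The next comparison concerns the importers. Slc39a8, which brings zinc and manganese into cells, was the member whose penicillin values all lay below the control values. It had log2 values of 7.64, 7.45, 7.28 and 7.65 in penicillin mice, against 7.84, 7.70 and 8.00 in control mice. The highest penicillin mouse, at 7.65, lay close below the lowest control mouse, at 7.70. The difference was -0.34 ± 0.11 (SE, 1.27-fold lower; 95% interval -0.60 to -0.09), with an adjusted p of 0.391 in limma. Without control replicate 3 it was -0.27 (adjusted p = 0.480 in limma), and without penicillin replicate 3 also -0.27 (adjusted p = 0.659 in limma). A second probe set of Slc39a8 lay under the level of the filter on dim genes, at 3.79 ± 0.192 in penicillin mice and 3.84 ± 0.210 in control mice (SD), with a difference of -0.05. The mean of both probe sets differed by -0.20.

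Beside Slc39a8 stand the markers of T and intraepithelial lymphocytes. All 7 measured markers had lower values, where 45.3% of all genes tested had higher ones. Of the 7 markers 2, Ccl5 and Itgae, were called, where 0.088% of all genes tested were called lower. At an unadjusted p under 0.05 there were 6 of the 7, against 10.7% of all genes tested, and the groups did not overlap in 6, against 10.3%. Their mean level was between log2 6.67 and 7.17 in penicillin mice and between 7.77 and 8.23 in control mice, and without control replicate 3 all 7 still had lower values. Paneth cell markers, secretory products of the crypt base, had lower values in 6 of 6 cases with 0 called, and their mean level was between 12.4 and 12.6 in penicillin mice, against 12.8 to 13.0 in control mice. The part of either in the value of Slc39a8 was not tested. In whole tissue, fewer cells of a type and less RNA per cell cannot be told apart.

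Slc39a4 is the importer of the apical membrane of enterocytes, whose loss in humans causes the zinc deficiency acrodermatitis enteropathica. It had log2 values of 10.92, 11.07, 11.29 and 11.09 in penicillin mice, against 10.96, 11.32 and 10.27 in control mice. Penicillin mice lay within the range of control replicates 1 and 2 except for replicate 1, and control replicate 3 was the lowest array. The difference was 0.24 ± 0.23 (SE, adjusted p = 0.680 in limma), and it turned to -0.05 without control replicate 3. Slc39a5, an importer of the basolateral side, averaged 9.66 ± 0.0607 in penicillin mice and 9.54 ± 0.229 in control mice (SD, n = 4 and 3). The difference of 0.12 ± 0.10 (SE, adjusted p = 0.652 in limma) became -0.01 without control replicate 3. As Slc39a5 is also a gene of the exocrine pancreas, acinar markers were set beside it. Of 4 measured, Cpa1 and Cela2a lay under the level of the filter on dim genes, and the mean of all 4 was between log2 4.47 and 4.53 in penicillin mice and between 4.43 and 4.52 in control mice.

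Slc39a14 carries zinc, manganese and iron that is not bound to transferrin. Its log2 values were 8.96, 8.94, 9.09 and 8.95 in penicillin mice, against 8.98, 8.98 and 8.48 in control mice. Control replicate 3 was low, and the other 6 arrays lay close together, between 8.94 and 9.09. The difference was 0.17 ± 0.13 (SE, adjusted p = 0.603 in limma) and 0.00429 without control replicate 3. The other 3 probe sets differed by 0.19, 0.05 and -0.03. Slc39a14 is known to be induced by interleukin-6, and genes responsive to that cytokine and STAT3 are given beside it. All 6 measured members of that list had lower values in penicillin mice, where 45.3% of all genes tested had higher ones. Of the 6, 0 were called in limma, against 0.0953% of all genes tested. At an unadjusted p under 0.05 there were 4, against 10.7% of all genes tested. Their median difference was -0.59, against -0.01 over all genes tested. Without control replicate 3 they were lower in 5 of 6 cases, with a median of -0.72. Saa2, an acute-phase protein, had log2 values of 7.52, 6.26, 6.31 and 5.04 in penicillin mice, against 8.47, 8.70 and 7.73 in control mice. Its relative Saa1 differed by -3.65 ± 0.97 (SE, adjusted p = 0.302 in limma).

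Among the exporters, Slc30a4 had the smallest p of the 10 members. Slc30a4 moves zinc into vesicles and is the gene of the mouse mutant lethal milk, in which milk lacks zinc. It had log2 values of 11.74, 11.62, 11.78 and 11.67 in penicillin mice, against 11.46, 11.39 and 11.21 in control mice. All 4 penicillin mice lay above all 3 control mice. The difference was 0.35 ± 0.075 (SE, 1.27-fold higher; 95% interval 0.17 to 0.52), with an adjusted p of 0.190 in limma. Without control replicate 3, the lowest array, it was 0.27 (adjusted p = 0.208 in limma), and with every other single array left out it was between 0.32 and 0.40. Slc30a4 has 1 probe set on the array, so no second reading was at hand. With array quality weights, which called 5.67% of all genes tested, Slc30a4 was called at 0.23 (adjusted p = 0.0447 in limma). In the fit over all probe sets with such weights its probe set was not called.

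Brush border genes had higher values in penicillin mice in 7 of 7 cases, against 45.3% of all genes tested. Of the 7, 0 were called, against 0.0953% of all genes tested, and the median difference was 0.32. The shared direction rests on control replicate 3: without it 4 were higher and 3, Mgam, Anpep and Dpp4, lower by value, with a median of 0.09. Their mean level was between log2 11.37 and 11.81 in penicillin mice, against 11.39 and 11.41 in control replicates 1 and 2 and 10.31 in control replicate 3. The part of enterocyte content in the value of Slc30a4 was not tested. The genes most like Slc30a4 over the 7 arrays were Cilk1, a kinase of cilia, at r = 0.998, Slc25a24, a mitochondrial carrier, at r = 0.986, Sertad2 at r = 0.979, Tjp1, a scaffold of tight junctions, at r = 0.978, and Tbc1d24 at r = 0.976. Each of these was higher by value in penicillin mice, by 0.15 to 0.54, and none was called. They were picked for their likeness to Slc30a4, so their shared direction follows from that choice and is no separate result.

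Slc30a1 encodes the exporter of the plasma membrane that lowers cytosolic zinc. It had log2 values of 10.69, 10.56, 10.07 and 10.56 in penicillin mice, against 11.02, 11.01 and 10.31 in control mice. Every penicillin mouse lay below control replicates 1 and 2, while control replicate 3 lay among the penicillin mice. The difference was -0.31 ± 0.21 (SE, 1.24-fold lower; adjusted p = 0.584 in limma), and -0.55 ± 0.17 (SE, adjusted p = 0.308 in limma) without control replicate 3. Without penicillin replicate 3, the lowest array, that difference was -0.18 (adjusted p = 0.825 in limma). Over all single arrays left out it ran from -0.55 to -0.18. The second probe set of Slc30a1 had the same order of groups. Its log2 values were 9.12, 9.14, 8.69 and 9.08 in penicillin mice, against 9.49, 9.53 and 8.81 in control mice. By group mean Slc30a1 was lower and Mt1 and Mt2 were higher in penicillin mice, and neither direction passed the test. Within the penicillin mice all 3 genes, read by their brightest probe sets, were lowest in replicate 3.

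Slc30a10, known as a manganese exporter, had the same shape. It had log2 values of 6.46, 6.98, 6.39 and 6.87 in penicillin mice, against 7.49, 7.68 and 6.43 in control mice. Again control replicates 1 and 2 lay above every penicillin mouse and control replicate 3 did not. The difference was -0.53 ± 0.30 (SE, 1.44-fold lower; adjusted p = 0.539 in limma), and -0.91 ± 0.18 (SE, adjusted p = 0.167 in limma) without control replicate 3. The second probe set of Slc30a10 had log2 values of 6.36, 6.59, 6.35 and 6.55 in penicillin mice, against 6.97, 7.10 and 5.98 in control mice, with a difference of -0.22 ± 0.25 (SE). Leaving out any one of the control arrays moved the difference of Slc30a10 to between -0.91 and -0.29.

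The probe sets were also tested one by one, over all 34945 that name 1 gene. Of the 21 member probe sets 0 were called in limma, where 0.0458% of all were called. At an unadjusted p under 0.05 there were 2, against 9.11% of all probe sets, and the groups did not overlap in 2, against 7.73%. The smallest adjusted p was 0.260, for Slc30a4. Of the 6 genes with more than 1 probe set, Slc39a14 and Mtf1 had differences of both signs, and Mt1, Slc39a8, Slc30a1 and Slc30a10 had 1 sign. The member probe sets under the filter on dim genes were 2, the second of Slc39a8 and the dimmest of Mtf1.

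**Figure D4:**
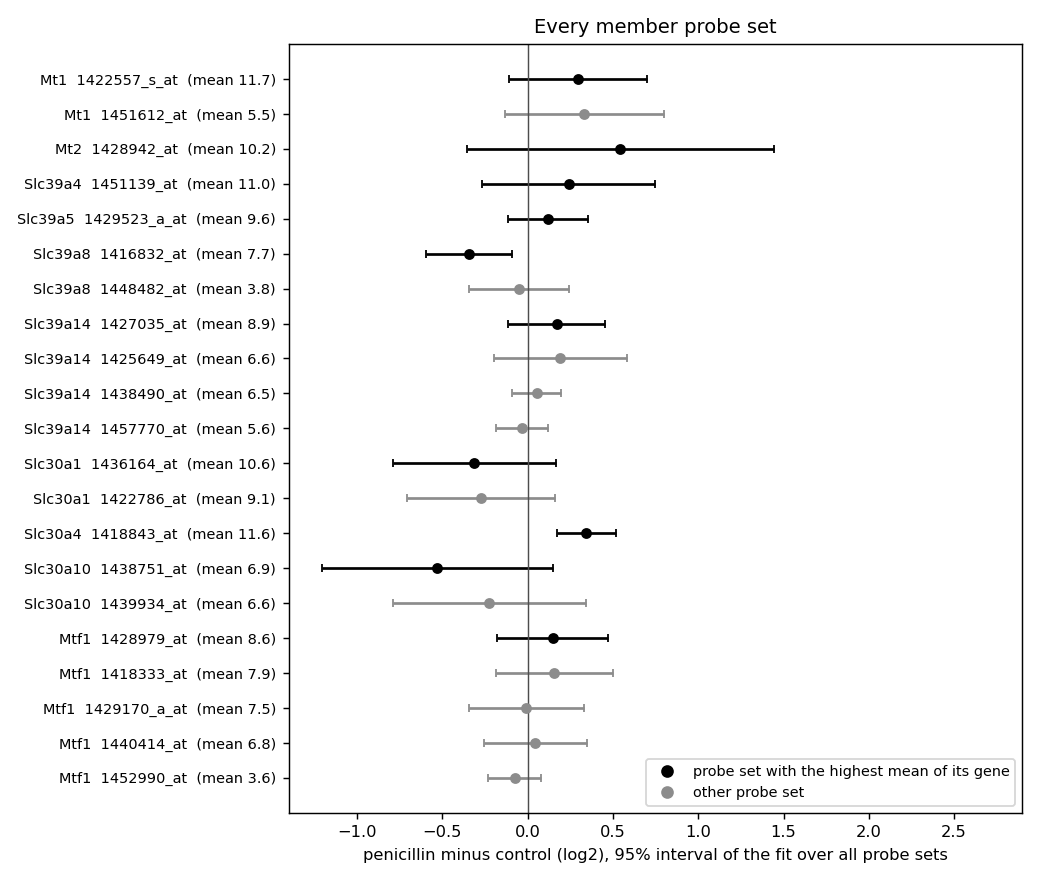
Difference penicillin minus control (log2; x axis) of each of the 21 member probe sets (rows, with mean level over the 7 arrays) and its 95% interval in the fit over all probe sets; black marks the probe set that stands for its gene. The intervals of Slc30a4 and of the brighter Slc39a8 probe set do not include 0, and all the others do.

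The other genes of metal handling were drawn from lists chosen for their function. Of 8 tested ZIP importers outside the members 0 were called in limma, against 0.0953% of all genes tested. At an unadjusted p under 0.05 there was 1, Slc39a7, against 10.7% of all genes tested. Slc39a7, which releases zinc from the endoplasmic reticulum, had log2 values of 9.58, 9.67, 9.65 and 9.63 in penicillin mice, against 9.86, 9.80 and 9.90 in control mice. All penicillin mice lay below all control mice. The difference was -0.22 ± 0.051 (SE, adjusted p = 0.229 in limma), and it stayed between -0.25 and -0.20 with any single array left out. By value 7 of the 8 were lower, where 45.3% of all genes tested were higher, and their median was -0.07. Slc39a11 differed by -0.08. Slc39a2 and Slc39a12 lay under the filter.

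Of 6 tested ZnT exporters outside the members 0 were called and 0 had an unadjusted p under 0.05 in limma. The shares over all genes tested were 0.0953% and 10.7%. Slc30a2, the zinc transporter of Paneth cell granules, differed by 0.22 ± 0.15 (SE, adjusted p = 0.578 in limma) and by 0.03 without control replicate 3. Slc30a7, of the Golgi, differed by -0.07. Slc30a8 lay under the filter. Mt3, known from the brain, differed by 0.14 and Mt4 lay under the filter. Of the other 5 genes reported as regulated by MTF-1 0 were called in limma, against 0.0953% of all genes tested. Only 1, against 10.7% of all genes tested, had an unadjusted p under 0.05. It was Gclc, the catalytic subunit of the enzyme that starts glutathione synthesis, with log2 values of 9.88, 9.88, 10.17 and 10.19 in penicillin mice, against 9.64, 9.74 and 9.70 in control mice. All penicillin mice lay above all control mice, with a difference of 0.33 ± 0.097 (SE, adjusted p = 0.332 in limma). Ndrg1 differed by 0.15. By value 2 of the 5 were higher and 3, Csrp1, Selenow and Slc39a10, were lower, with a median of -0.097. The list does not separate genes by direction of regulation, so this count and median are no measure of MTF-1 activity.

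Copper handling and glucocorticoid-inducible genes completed the lists. Glucocorticoids are known to induce metallothioneins. Of 9 copper genes 0 were called and 0 had an unadjusted p under 0.05 in limma, with a median difference of 0.02. Atp7b, a copper pump, differed by 0.39 and Slc31a1, the copper importer, by 0.42, and without control replicate 3 they differed by 0.15 and 0.11. Of 6 glucocorticoid-inducible genes 0 were called, 1 had an unadjusted p under 0.05 in limma, and 2 were higher and 4 lower by value. Sgk1, a kinase that raises sodium uptake, differed by 0.45 ± 0.18 (SE) and by 0.20 without control replicate 3, and Klf9 by -0.14. Over the 40 tested genes of all these lists, that of interleukin-6 included, 0 were called in limma, against 0.0953% of all genes tested, and 7 had an unadjusted p under 0.05, against 10.7%. Of these 7, 4 came from the 6 genes of the interleukin-6 list. The plot of the other metal genes gives the intervals for these lists, except those of glucocorticoids and of interleukin-6.

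**Figure D5:**
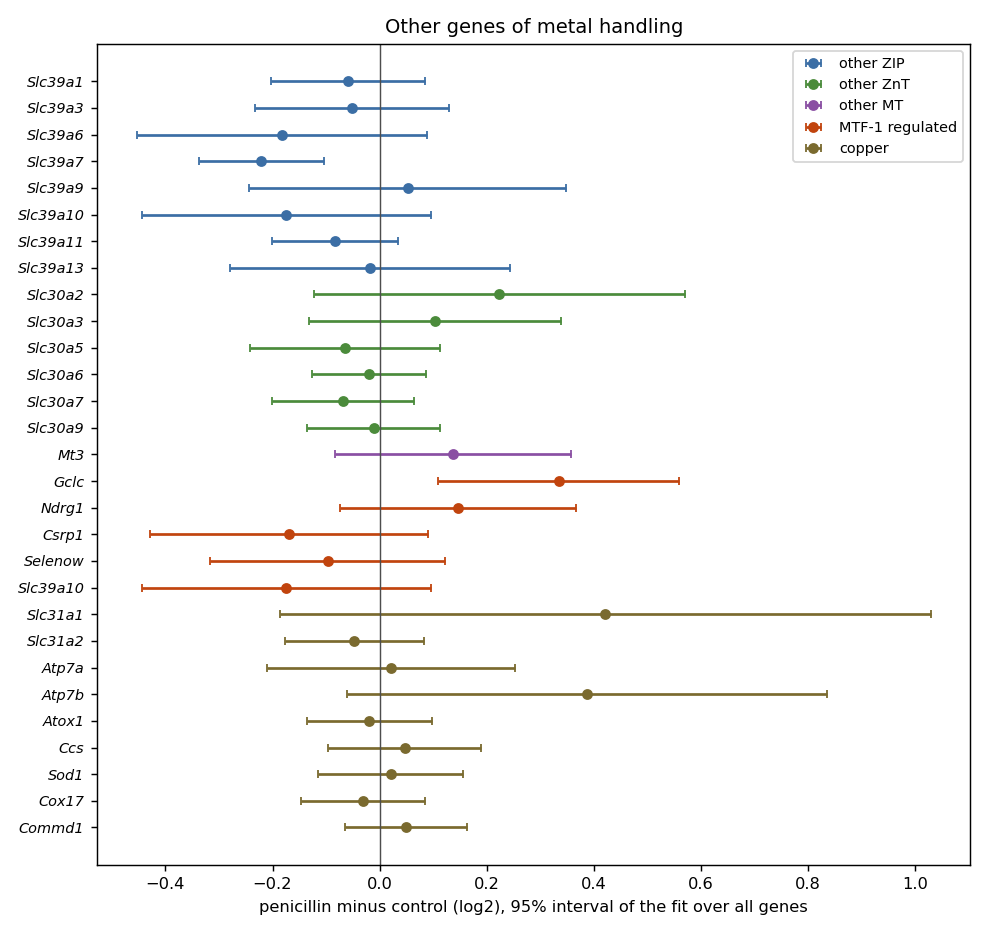
Difference penicillin minus control (log2; x axis) with its 95% interval in the fit over all genes, for the tested genes of the other ZIP, ZnT, metallothionein, MTF-1 regulated and copper lists (rows, coloured by list; Slc39a10 is in 2 lists). The intervals of Slc39a7, at -0.22, and Gclc, at 0.33, do not include 0.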

How the data were processed

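Terminal ileum RNA from 7 mice was measured on 1 Affymetrix array each, per the labels. The deposited log2 values per probe set were made by the authors with RMA (background correction, equalising of arrays, probe set summary) and affy, as the submitters' processing notes record; the sources used here name no version or build. RMA gives no detection call, and the number of arrays limits the precision. Genes were named from the platform annotation of 2016, with symbols updated by gene ID through a RefSeq table (34741 of 34945 probe sets matched). Annotation gave 1 gene for 34958 probe sets, several for 932 and none for 9211; 64 control probe sets were left out. One probe set, that of highest mean over the 7 arrays, stood for each gene, and genes at or under the 25th percentile of these means (log2 4.59) were left out. Penicillin and control were compared with limma 3.58.1 (lmFit, eBayes) in R 4.3.3, two-sided, with Benjamini-Hochberg adjusted p over 13644 genes. The fit was tested on simulated data.

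Named were all members, of each pathway list the called genes or else the 2 with the largest absolute moderated t, and the 5 genes most correlated with Mt1 and with Slc30a4. Saa1 and Saa2 belong to such a pathway list. Car1 and Aqp8 belong to a marker list, that of the colon. From marker lists the genes named were those needed to describe the level of the list. The correlation of Mt1 with Mt2 was picked once both had been looked at. The members and lists were chosen with earlier results of these data known. Alternatives changed normalisation, filter, probe set summary, moderation, array weights, the block and the arrays included. List counts without control replicate 3 were added after seeing the data. Python 3.11.15 with matplotlib 3.10.9 drew the figures.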

Additional observations from a re-analysis of the deposited data

Results flagged for a closer look

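Among the 4 penicillin mice, Slc39a14 in penicillin replicate 3 lay far from the others, at log2 9.09 against 8.94 to 8.96, and its gap to the nearest value was 0.877 of the group's range. The second probe set of Slc30a1 was low in the same mouse, at log2 8.69 against 9.08 to 9.14 (0.864 of the range). Another probe set of Slc39a14 had the same value, log2 6.48, in 3 of the 4 penicillin mice and in control replicate 1. Penicillin replicate 4 was at 6.52, and so was control replicate 2. With the other 3 penicillin values tied, the gap is the whole range (1) whatever the remaining value is. That pass was fixed by the tie and marks no outlier. Each gap was above Dixon's 95% critical value for 4 samples. About 5% of groups without such ties pass it by chance, and 21 probe sets were looked at. Control mice, 3 in number, were too few for it.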

How the results depend on the processing

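Of the 10 members 0 were called in limma with a further quantile normalisation or median centring of the arrays, with no filter or a filter at the 50th percentile, with probe sets averaged, with a trend and robust prior, with the replicate block, and without any single array. Array quality weights called 1 member, Slc30a4 at 0.23 (adjusted p = 0.0447 in limma). They also called 6 genes of the pathway lists (among them Slc39a7, Saa1 and Saa2) and 774 genes in all. Control replicate 3 then had a weight of 0.249 and control replicate 1 of 4.53. In the fit over all probe sets with array quality weights 0 member probe sets were called. Over all genes 13 were called, with 7 when probe sets were averaged, 0 with the replicate block (803 at an unadjusted p under 0.05), 2 without control replicate 3 and penicillin replicate 3 together, and 0 to 15 without single arrays. Arrays of the same replicate number did not deviate together (correlations of their deviations from the group means of -0.164, 0.00297 and -0.416). Those of different number had correlations from -0.367 to 0.375. With 3 such pairs this cannot decide whether the number pairs the arrays, and the labels do not say. The replicate block, in which penicillin replicate 4 had no partner, left the direction of every member as it was, and the adjusted p of each member was 0.790 or above. Differences were followed for the members and for the 2 genes of each pathway list with the largest absolute moderated t. Among these, signs turned only in Slc39a4, Slc39a5, Slc39a14, Mtf1 and Slc31a1. Without control replicate 3 and penicillin replicate 3 together these differed by -0.12, -0.028, -0.029, -0.095 and -0.023. With array quality weights Slc39a5 and Mtf1 differed by -0.0032 and -0.055. Without control replicate 3 Slc39a4, Slc39a5 and Mtf1 differed by -0.051, -0.0100 and -0.025. Genes not followed there also turned without control replicate 3, such as Slc39a9, from 0.05 to -0.09. Over the single arrays left out Slc39a4 ranged from -0.051 to 0.47, Slc39a5 from -0.0100 to 0.20 and Mtf1 from -0.025 to 0.25. The cause was not tested. Low probe sets near background limit what their differences can show.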
